A study of Mus musculus with 2 samples.

Results

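The genes described here encode proteins of microfibrils and elastic fibres: the fibrillins Fbn1 and Fbn2, elastin (Eln), the latent TGF-beta binding proteins Ltbp1, Ltbp2, Ltbp3 and Ltbp4, and the fibre-associated proteins Fbln5, Emilin1 and Mfap4. They were taken by symbol, and all 10 had 1 row each among the 43346 gene rows. The samples form 1 group of 2 libraries made from polyadenylated RNA above 200 nucleotides of limbs, taken at embryonic day 14.5 from mice of the C57BL/6J strain. No gene was altered and no agent was given according to the labels, each library is a pool of littermates of both sexes, and the reads were stranded pairs. Whether these were fore- or hindlimbs is not stated. The labels name the libraries as biological replicates 1 and 2 with 1 donor identifier in common, so the spread between them may be partly technical. With 1 group no conditions were compared, and the data give the levels of these genes, their order, their transcript forms and the difference between the 2 libraries.

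Microfibrils are thin extracellular filaments built mainly of fibrillin, and elastic fibres form when secreted elastin is laid down on them and crosslinked. Latent TGF-beta binding proteins resemble fibrillins, attach to the same filaments, and most of them hold TGF-beta in an inactive complex in the matrix. In the embryonic limb these fibres belong to the perichondrium, tendons, dermis and vessel walls, and fibrillin-2 is needed for the separation of digits.

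Ltbp1 and Ltbp4 are transcribed from separate starts, which are shown because transcripts from both starts of each gene were found in both libraries. The annotated first bases of the long and short forms, Ltbp1-201 and Ltbp1-202, are 173343 bases apart, at chromosome 17 positions 75005568 and 75178911 on the plus strand. Those of Ltbp4-201 and Ltbp4-205 are 4029 bases apart, at chromosome 7 positions 27337692 and 27333663 on the minus strand. The sequences below come from RefSeq promoters on GRCm38.p6, the assembly mm10 is built on, and 7 of the 10 genes had an entry there (not Fbn2, Eln and Mfap4). Each is given 5′ to 3′ on the strand of its gene and ends before the first annotated transcribed base. Capitals mark CCAAT and GGGCGG on either strand.
Ltbp1 upstream start, chr17:75005279-75005528, plus strand: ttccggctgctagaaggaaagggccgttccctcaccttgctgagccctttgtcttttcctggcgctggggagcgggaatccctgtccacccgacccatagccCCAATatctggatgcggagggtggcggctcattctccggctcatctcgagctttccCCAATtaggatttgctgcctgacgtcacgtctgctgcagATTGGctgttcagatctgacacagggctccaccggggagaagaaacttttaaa
Ltbp1 downstream start, chr17:75178531-75178780, plus strand: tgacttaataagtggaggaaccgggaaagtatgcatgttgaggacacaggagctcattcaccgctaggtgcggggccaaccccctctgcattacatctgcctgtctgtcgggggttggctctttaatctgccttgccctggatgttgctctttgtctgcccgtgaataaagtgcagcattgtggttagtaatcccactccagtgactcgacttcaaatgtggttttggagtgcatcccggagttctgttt
Ltbp4 upstream start, chr7:27337693-27337862, minus strand: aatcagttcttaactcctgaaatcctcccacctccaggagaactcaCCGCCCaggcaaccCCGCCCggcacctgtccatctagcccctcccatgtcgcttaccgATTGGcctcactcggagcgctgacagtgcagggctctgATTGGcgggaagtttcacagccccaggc
Ltbp4 downstream start, chr7:27333664-27333898, minus strand: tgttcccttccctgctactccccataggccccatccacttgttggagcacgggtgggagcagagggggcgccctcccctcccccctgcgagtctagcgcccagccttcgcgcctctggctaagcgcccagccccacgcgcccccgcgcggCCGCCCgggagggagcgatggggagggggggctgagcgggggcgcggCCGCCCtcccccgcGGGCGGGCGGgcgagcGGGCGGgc

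The 4 windows differ in composition. The window at the downstream start of Ltbp4 was 78.3% G and C with 26 CpG, against medians of 51.9% and 5 over the same stretch of all 32851 promoters in the table. It held GGGCGG 5 times, counting overlapping copies, and 30.6% of all promoters held it at least once in that stretch. The upstream window of Ltbp4 was 60.6% G and C and held GGGCGG 2 times and CCAAT 2 times, which 19.5% and 23.3% of promoters held in the same stretch. The upstream window of Ltbp1 held CCAAT 3 times, found in 33.8% of promoters, and its downstream window held neither sequence. TATAAA was in none of the 4 windows. These matches describe letters and not binding.

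Levels of all 10 genes lay above those of most protein-coding genes. Each had at least 10 TPM in both libraries (TPM is abundance per transcript length, scaled to the same total in both libraries), a level that 41.7% of 21474 protein-coding genes reached. Ltbp2 reached it only with its short transcripts, described below, without which it had 7.66 and 8.02 TPM. A level of 100 TPM in both was reached by 4 of the 10 genes, Mfap4, Emilin1, Eln and Ltbp3, and by 5.81% of protein-coding genes. The median of the 10 was 83.8 TPM in replicate 1 and 93.0 TPM in replicate 2, and the median mean of protein-coding genes was 5.84 TPM. In whole tissue a lower level may come from fewer cells of a type or from less RNA per cell, which cannot be told apart here.

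The limb origin of the RNA was visible in its markers, and libraries were of similar depth. The gene rows summed to 110172148 and 103363136 expected counts in replicates 1 and 2. All 5 limb markers (Prrx1, Tbx5, Tbx4, Pitx1 and Hoxd13) reached 10 TPM in both libraries, as did the 4 cartilage, 3 tendon, 4 connective tissue and 4 endothelial markers. The 3 skeletal muscle markers (Myog, Myh3 and Actc1) and the 3 epidermal markers also did so. Of 7 markers of other organs, 2 reached 1 TPM in both, the liver genes Alb at 5.70 and 1.10 TPM and Afp at 19.6 and 23.6 TPM. Of 6 smooth muscle and pericyte markers 3 reached 10 TPM in both, Acta2 at 277 and 274, Pdgfrb at 51.5 and 60.8 and Tagln at 22.9 and 21.9 TPM. Rgs5 stood at 8.53 and 7.51 and Cnn1 at 1.13 and 1.54 TPM, and Myh11, which defines mature smooth muscle, stood at 0.920 and 0.650 TPM.

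Fibrillins form the microfibril core, and the fibrillin of developing tissue was the more abundant. Fbn2 (ENSMUSG00000024598.8, chromosome 18, 58008623 to 58210487, minus strand) had 96.4 and 99.0 TPM in replicates 1 and 2, from 74305 and 70860 counts. Fbn1 (ENSMUSG00000027204.9, chromosome 2, 125300594 to 125507993, minus strand), the fibrillin altered in Marfan syndrome, had 26.1 and 24.1 TPM from 18800 and 16039 counts. Values of the genes did not overlap in either library, and Fbn2 was 3.79-fold above Fbn1 on the log2(TPM + 1) scale (log2 difference 1.92, SE 0.18, 95% interval 1.46 to 2.38, limma). The difference was 1.85 in replicate 1 and 2.00 in replicate 2.

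Elastin is the polymer that gives elastic fibres their recoil, and its TPM was above that of Fbn1 beyond the spread and above that of Fbn2 within it. Eln (ENSMUSG00000029675.9, chromosome 5, 134702593 to 134747323, minus strand) had 140 and 135 TPM from 25105 and 22262 counts. It was 5.33-fold above Fbn1 (log2 difference 2.41, SE 0.19, 95% interval 1.94 to 2.89, limma). Against Fbn2 the difference did not exceed the spread, although Eln was higher in both libraries (log2 difference 0.49, SE 0.20, 95% interval -0.01 to 0.99, limma). The Eln model used by the authors is 2583 nucleotides long, whereas the same transcript has 3853 in GENCODE M21. How the 1270 added bases would change its TPM was not tested. For Fbn2 the M21 model is 561 bases longer than the 10480 nucleotides used.

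Of the 4 latent TGF-beta binding proteins, Ltbp1, Ltbp3 and Ltbp4 stood above Fbn1 in both libraries and Ltbp2 below it. Ltbp3 (ENSMUSG00000024940.10, chromosome 19, 5740904 to 5758532, plus strand), which carries latent TGF-beta and is needed for skeletal growth, led with 117 and 153 TPM from 43789 and 53114 counts. Ltbp4 (ENSMUSG00000040488.12, chromosome 7, 27305136 to 27337692, minus strand), which also takes part in elastic fibre assembly, had 71.3 and 87.0 TPM from 22418 and 24467 counts. Ltbp1 (ENSMUSG00000001870.11, chromosome 17, 75005568 to 75392512, plus strand), another carrier of latent TGF-beta, had 69.2 and 67.3 TPM from 26454 and 24319 counts. Replicate 1 of Ltbp4 lay close to both Ltbp1 values, and the difference of the genes did not exceed the spread (log2 difference 0.20, SE 0.20, 95% interval -0.30 to 0.70, limma).

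Ltbp2 was the lowest of the 10 genes. This member of the family (ENSMUSG00000002020.11, chromosome 12, 84783212 to 84876532, minus strand) does not bind latent TGF-beta. It had 10.2 and 13.9 TPM, from 3765 counts in each library. Ltbp3 stood 10.4-fold above it (log2 difference 3.38, SE 0.22, 95% interval 2.83 to 3.93, limma), and Ltbp1 5.36-fold (log2 difference 2.42, SE 0.20, 95% interval 1.93 to 2.92, limma).

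Among the fibre-associated proteins Mfap4 was far the highest. Mfap4 (ENSMUSG00000042436.8, chromosome 11, 61485431 to 61488900, plus strand), a fibrinogen-related protein of microfibrils, had 623 and 746 TPM from 66049 and 72053 counts. By mean TPM it ranked 152 among protein-coding genes and made up 45.1% and 46.7% of the summed TPM of the 10 genes. Emilin1 (ENSMUSG00000029163.7, chromosome 5, 30913402 to 30921277, plus strand), a glycoprotein found between elastin and microfibrils, had 190 and 226 TPM from 30355 and 30659 counts. Fbln5 (ENSMUSG00000021186.8, chromosome 12, 101746565 to 101819055, minus strand), which tethers elastin to microfibrils and cells, had 36.5 and 44.9 TPM from 15434 and 17567 counts. Both libraries placed Mfap4 above Emilin1 and Emilin1 above Fbln5 without overlap.

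**Figure D1:**
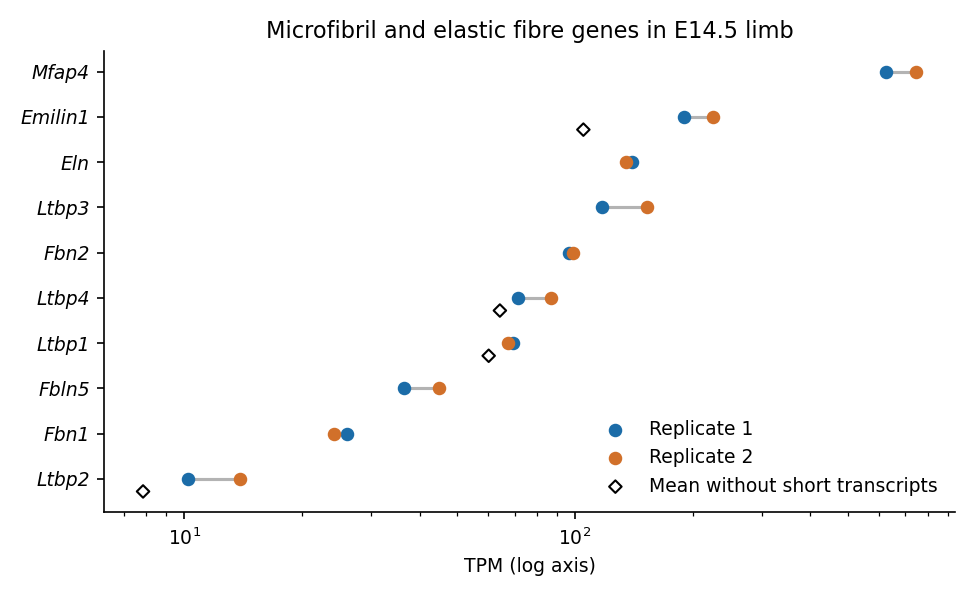
Level of each gene in TPM (log axis) in replicate 1 (blue) and replicate 2 (orange), ordered by mean. Open diamonds give the mean without short transcripts for genes where it differs by over 2% from the mean of all transcripts. Mfap4 stands apart at 623 and 746 TPM, and the diamond of Emilin1 lies at 105 TPM, below Eln.

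The order by mean TPM ran from Mfap4 at 685 ± 87.4, Emilin1 at 208 ± 25.6 and Eln at 138 ± 3.60 through Ltbp3 at 135 ± 25.7, Fbn2 at 97.7 ± 1.87 and Ltbp4 at 79.2 ± 11.1 TPM (SD, n = 2). Below these came Ltbp1 at 68.3 ± 1.31, Fbln5 at 40.7 ± 5.91, Fbn1 at 25.1 ± 1.41 and Ltbp2 at 12.1 ± 2.62 TPM (SD, n = 2). Of the 9 neighbouring steps, 5 exceeded the spread by the 95% interval of a limma fit over 15055 genes. These were the steps from Mfap4 to Emilin1, from Emilin1 to Eln, from Ltbp1 to Fbln5, from Fbln5 to Fbn1 and from Fbn1 to Ltbp2. The first was the widest of these in TPM, 3.28-fold (log2 difference 1.71, SE 0.24, 95% interval 1.12 to 2.31, limma), and its size rested on the Emilin1 transcripts counted, as given below. In CPM, which is not scaled by length, it was 1.17 on the log2 scale, less than the 2.17 of Fbn1 over Ltbp2. Eln, Ltbp3, Fbn2, Ltbp4 and Ltbp1 followed each other by steps that did not exceed the spread, and Eln and Ltbp3 changed places between the libraries. Over all 45 pairs, 40 differed beyond the spread.

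Some of these levels rested on short annotated transcripts. The deposited counts of the 10 genes were whole to the last decimal given, but a gene's TPM also depends on how its counts were divided among transcripts of different length. Counting only transcripts at least 50% as long as the longest of the gene, a setting chosen after the data were seen, the mean of Emilin1 was 105 ± 5.49 TPM and that of Ltbp2 was 7.84 ± 0.255 TPM (SD, n = 2). Ltbp4 then stood at 64.2 ± 7.41 and Ltbp1 at 60.1 ± 1.92 TPM (SD, n = 2). The step from Mfap4 to Emilin1 then widened to 6.44-fold (log2 difference 2.69, SE 0.22, 95% interval 2.12 to 3.25, limma). Emilin1 then lay below Eln, by less than the spread (log2 difference of Emilin1 over Eln -0.39, SE 0.20, 95% interval -0.90 to 0.11, limma). Fbn2 then exceeded Ltbp4 (log2 difference 0.60, SE 0.20, 95% interval 0.11 to 1.10, limma).

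In Emilin1 a transcript of 601 nucleotides, ENSMUST00000172453.1, carried 41.8% and 46.1% of the gene's TPM in replicates 1 and 2. It held 2393 and 2729 of the gene's counts, or 7.88% and 8.90%. The transcript of 3853 nucleotides, Emilin1-201, held 88.5% and 87.2% of the counts and 51.6% and 46.7% of the TPM. GENCODE M21, the later annotation used for names, does not list the short transcript.

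Ltbp2 likewise had a short transcript with few counts and much of the TPM. Ltbp2-206, 614 nucleotides long, held 76 and 160 counts and 23.8% and 42.4% of the gene's TPM. All 614 of its bases lie in exons of the full-length Ltbp2-201, which held 3413 and 3260 counts and 6.93 and 7.14 TPM. The level of Ltbp2-201 thus differed little between the libraries, while that of the whole gene was 1.36-fold higher in replicate 2.

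Ltbp1 is known to be made in a long and a short form from separate starts, and both were present. Ltbp1-201, the long form of 6671 nucleotides that begins at the upstream start shown above, had 28.7 and 36.2 TPM from 13925 and 16279 counts. Ltbp1-202, the short form of 4870 nucleotides from the downstream start, had 31.2 and 20.2 TPM from 10934 and 6541 counts. The short form was the higher in replicate 1 and the long form in replicate 2. Of the TPM of full-length transcripts, with Ltbp1-203 counted at the downstream start, the upstream start took 46.7% and 61.6% (54.1% ± 10.5, SD, n = 2). The forms share 4744 bases: 1927 bases of the long form are not in the short one, and 126 of the short form are not in the long one. Not all of the 1927 bases lie at the upstream start. Ltbp1-201 also ends further downstream, at position 75391767 against 75391326 for Ltbp1-202. Its exon ending at 75276623 begins earlier, at 75276396 against 75276555. Shares given to the starts may therefore include use of this other end and exon. How much these and the division of shared reads moved the shares was not tested.

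Ltbp4 too is made from a pair of starts, and there the downstream start led in both libraries. Ltbp4-205 from that start, 5118 nucleotides long, had 45.3 and 53.0 TPM from 16711 and 18094 counts. Ltbp4-201 from the upstream start, 5386 nucleotides long, had 13.2 and 16.4 TPM from 5138 and 5896 counts. The downstream start took 77.5% and 76.4% of the TPM of full-length transcripts (77.0% ± 0.779, SD, n = 2). Ltbp4-205 and Ltbp4-201 share 4809 bases: 577 bases of Ltbp4-201 are not in Ltbp4-205, and 309 of Ltbp4-205 are not in Ltbp4-201. As for Ltbp1, how much the division of shared reads moved these shares was not tested. A retained intron fragment of 550 nucleotides, Ltbp4-208, added 7.15 and 14.0 TPM from 188 and 318 counts.

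**Figure D2:**
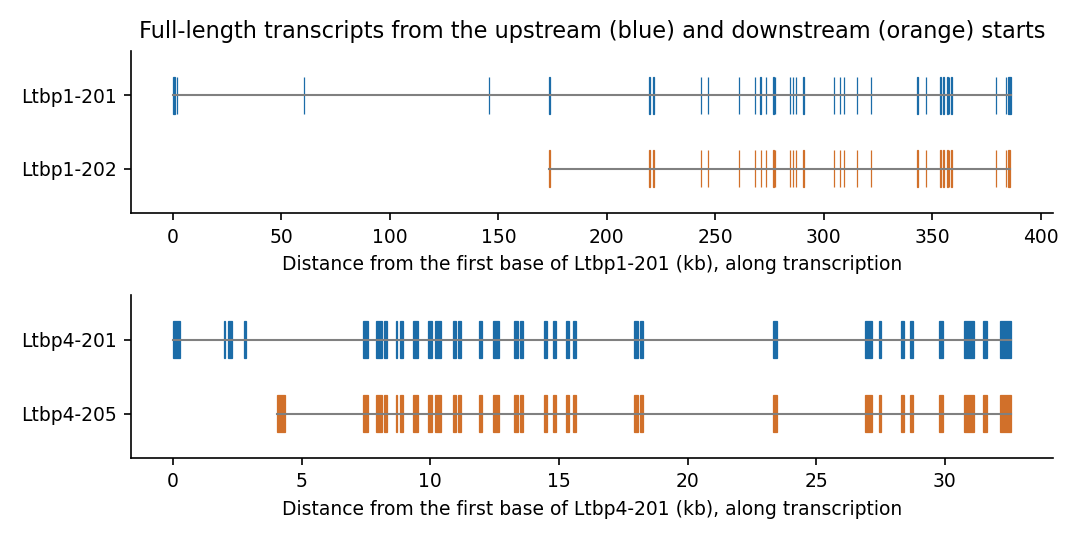
Exons (bars) and introns (lines) of the full-length transcripts of Ltbp1 and Ltbp4, in kilobases from the first base of the upstream form and read in the direction of transcription. Ltbp1-202 begins 173343 bases and Ltbp4-205 4029 bases after the first base of the longer form.

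The other genes used mainly 1 transcript. Eln, Fbn2, Ltbp3 and Fbln5 had 1 annotated transcript each in the tables. Fbn1-201 held 98.8% and 98.2% of Fbn1 TPM. In Mfap4 the transcript of 1722 nucleotides, Mfap4-202, took 85.9% and 85.1%, and the coding transcript of 939 nucleotides, Mfap4-201, took 13.4% and 13.9%. Among the 6 genes with 2 or more transcripts, the share of the leading one differed by over 10 percentage points between the libraries in 2, Ltbp1 (12.3 points) and Ltbp2 (16.5 points). Across the 7156 such genes whose mean reached 10 TPM it did so in 19.7%.

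**Figure D3:**
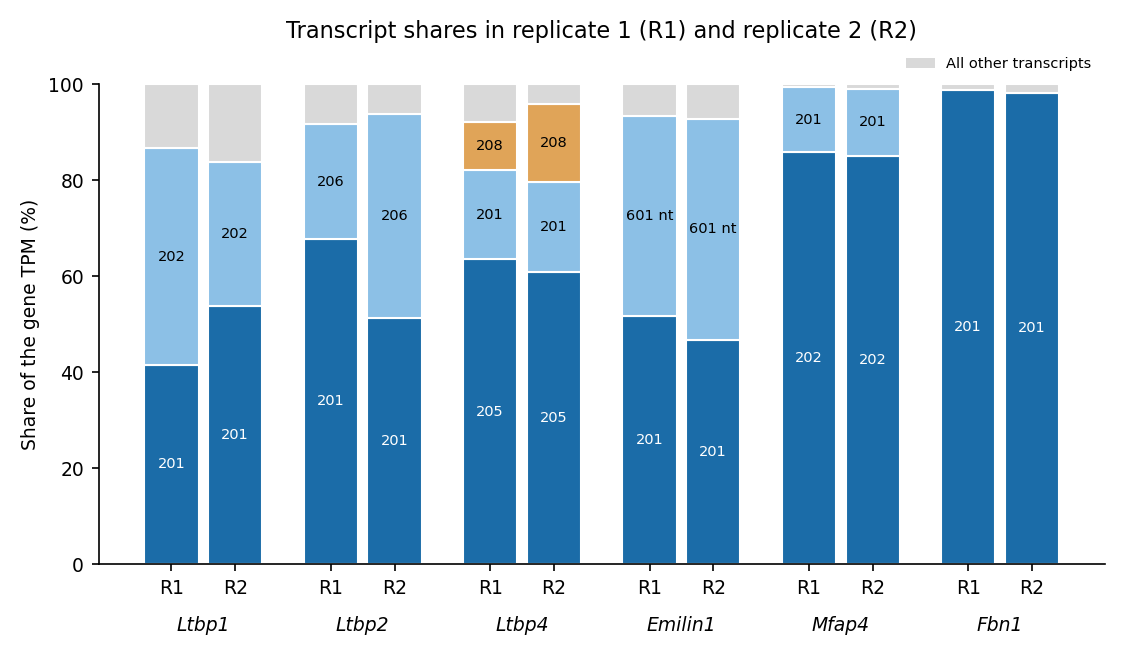
Share of each gene's TPM (%) held by its transcripts in replicate 1 (R1) and replicate 2 (R2), labelled by transcript number, with the transcript of 601 nucleotides in Emilin1 labelled by its length. Shares of Ltbp4-205, Mfap4-202 and Fbn1-201 differ by under 3 points, and those of Ltbp1-201 and Ltbp2-201 by 12.3 and 16.5 points.

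The libraries differed in these genes about as they did in others of similar depth. By counts scaled with TMM factors, 9 of the 10 differed beyond counting error, 7 higher and 2 lower in replicate 2 (exact binomial test, two-sided, adjusted over 20396 genes), a test that compares 2 libraries and not conditions. The same test called 60.5% of all genes, 30.3% higher and 30.2% lower. Among the 6537 genes with at least as many counts as Ltbp2 it called 86.0%, 50.7% higher and 35.2% lower, so 9 of 10 is near the background. Past 1.5-fold lay 7.09% by counts and 8.63% by TPM of the 9623 genes whose mean reached 10 TPM, and 0 of the 10, a number too small to set apart from that share. By TPM 7 of the 10 were higher in replicate 2, as were 55.3% of those 9623 genes.

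The largest ratio by counts belonged to Ltbp3, 1.31-fold higher in replicate 2 (log2 ratio 0.39, 95% counting interval 0.37 to 0.41). Fbln5 followed at a log2 ratio of 0.30, and Ltbp4 and Mfap4 at 0.24 each. Fbn1 and Eln were lower in replicate 2, with log2 ratios of -0.12 and -0.06. The exception to the calls was Ltbp1, at a log2 ratio of -0.01 (95% counting interval -0.03 to 0.02, adjusted p = 0.642, exact binomial test). The median absolute log2 ratio over the 9623 genes was 0.20, so Ltbp3, Fbln5, Ltbp4 and Mfap4 lay above it and the other 6 below. Intervals cover counting error only, and the wider spread between libraries is not in them.

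Ltbp2 had the largest ratio by TPM, a log2 ratio of 0.45, but 0.11 by counts (95% counting interval 0.05 to 0.18). Without its short transcripts its TPM ratio was 0.07. Emilin1 likewise had 0.25 by TPM, 0.13 by counts and 0.11 without short transcripts. Cell type markers also differed between the libraries. The 4 cartilage markers summed to 1916 TPM in replicate 1 and 2292 in replicate 2, and the 3 epidermal markers to 769 and 549 TPM. The 4 connective tissue markers summed to 1574 and 1286 TPM but did not move together: Col3a1 had 1262 and 906 TPM and Twist2 had 199 and 275 TPM, and the median of the list was 143 and 179 TPM. Of the 3 skeletal muscle markers, Myh3 had 159 and 91.5 TPM, Myog 137 and 132 TPM and Actc1 1117 and 1147 TPM. The part of these markers in the ratios of the 10 genes was not tested.

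**Figure D4:**
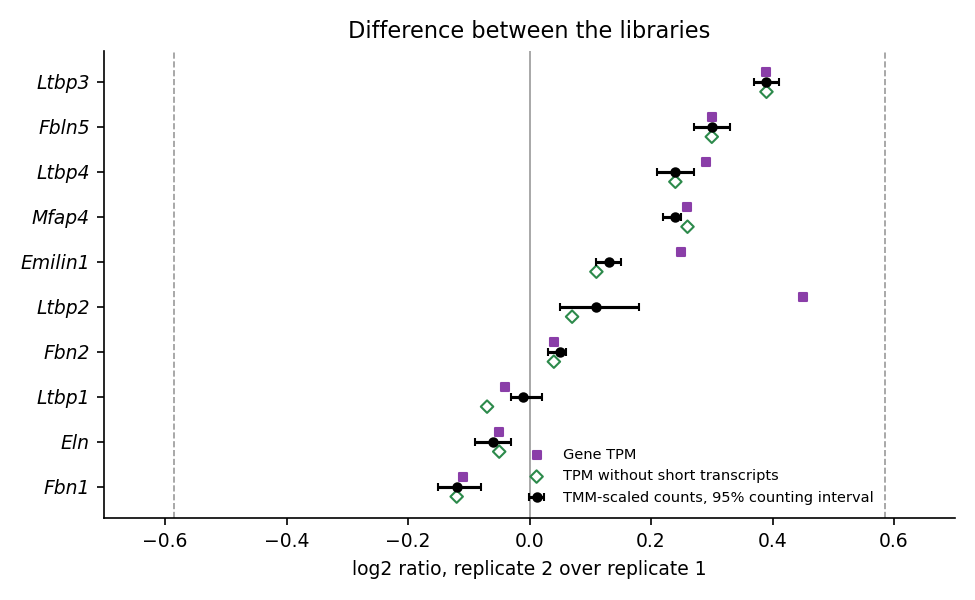
Log2 ratio of replicate 2 over replicate 1 for each gene, by TMM-scaled counts (black, with 95% counting intervals), by gene TPM (purple squares) and by TPM without short transcripts (open green diamonds). Dashed lines mark 1.5-fold, which no gene passes, and Ltbp2 has 0.45 by TPM beside 0.11 by counts.

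Other genes lie across some of these loci. Mapk7, on the strand opposite to Mfap4, had 16512 and 20200 counts. The labels do not say whether strand was used in counting, so the level of Mfap4 is less certain. Genes overlapping Fbn1, Fbn2, Ltbp1 and Ltbp2 had at most 348 counts in either library.

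Partners of these fibres were described by 8 lists of 63 genes. Of these, 60 reached 1 TPM and 47 (74.6%) reached 10 TPM in both libraries, the latter beside 41.7% of protein-coding genes, and their median was 30.1 TPM. In the library test 39 of 61 tested partners were higher and 11 lower in replicate 2, beside 30.3% and 30.2% of all genes tested and 50.7% and 35.2% of those with at least as many counts as Ltbp2. Nothing particular to the partners is read from these counts.

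Of 12 other microfibril and fibulin-family genes, 10 reached 10 TPM in both libraries, with a median of 47.2 TPM. Mfap2, which encodes a small microfibril glycoprotein, had 591 and 752 TPM, a mean of 671 ± 114 (SD, n = 2) close to that of Mfap4. Mfap5, its relative, was named after its values were seen: at 27.6 and 15.7 TPM it was the 1 partner with a mean of at least 10 TPM that passed 1.5-fold by counts (log2 ratio -0.59). Fbln2 followed Mfap2 with 244 and 329 TPM and Efemp2, the fibulin-4 gene needed for elastin crosslinking, with 200 and 257 TPM.

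Genes for crosslinking and assembly of elastin had the highest median of the lists, 137 TPM, and 8 of 9 reached 10 TPM in both. The small proteoglycans Bgn and Dcn led with 333 and 430 TPM and with 403 and 333 TPM. Fkbp10, a chaperone of collagen and elastin, had 209 and 259 TPM. Lox, the lysyl oxidase that crosslinks elastin and collagen, was chosen after its values were seen and had 126 and 148 TPM, beside 140 and 135 TPM of Eln.

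In the list of ADAMTS and ADAMTS-like genes, secreted proteins several of which bind fibrillin, 5 of 9 reached 10 TPM in both, with a median of 15.4 TPM. Adamts10 was the highest at 186 and 231 TPM. Next were Thsd4 at 25.6 and 30.8 TPM and Adamts17 at 16.2 and 18.1 TPM.

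The cargo and the tethers of latent TGF-beta were all present. Tgfb3 was the highest ligand at 70.6 and 71.2 TPM, above Tgfb2 at 21.1 and 21.4 and Tgfb1 at 13.8 and 15.4 TPM. Ltbp1, Ltbp3 and Ltbp4 had mean levels of 68.3, 135 and 79.2 TPM, whereas the cell-surface tethers Lrrc32 and Nrros, named here after their values were seen, had means of 11.8 and 13.4 TPM. Of 7 integrin genes, whose products release TGF-beta or bind these matrix proteins, 3 reached 10 TPM in both: Itgb1 at 158 and 136, Itgb5 at 93.1 and 99.8 and Itgav at 31.8 and 31.7 TPM. All 8 receptor and Smad genes did so, with a median of 44.1 TPM, led by Smad4 at 59.3 and 78.4, Eng at 51.1 and 75.0 and Tgfbr2 at 51.7 and 58.9 TPM.

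Among 6 BMP and GDF ligands, growth factors of which several bind fibrillin, 4 reached 10 TPM in both. Gdf5 had 34.0 and 48.0 TPM, Bmp7 34.9 and 42.6 TPM and Bmp4 27.8 and 33.7 TPM. No count of Bmp10, a heart ligand, was found in replicate 1 or 2, a result that allows levels up to 0.0272 and 0.0290 CPM. Of 7 proteases that cleave elastin or related matrix, 4 reached 10 TPM in both. Mmp14 and Mmp2 led with 293 and 313 and with 244 and 293 TPM, and Ctsk had 54.6 and 44.1 TPM. Mmp12, the macrophage elastase, had 2 and 3 counts.

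**Figure D5:**
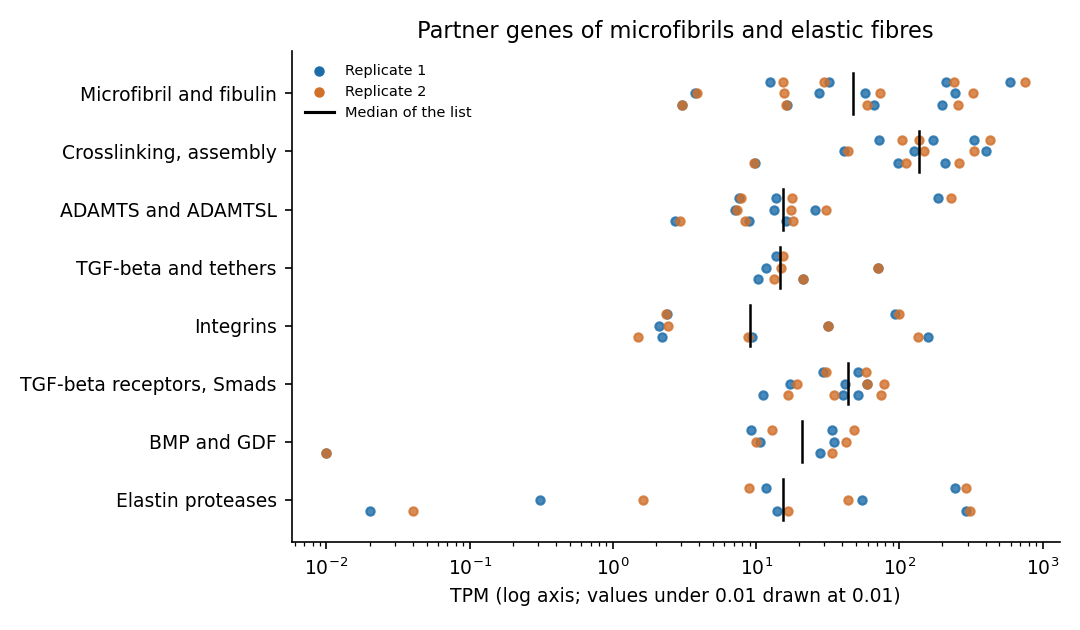
TPM (log axis) of the partner genes in replicate 1 (blue) and replicate 2 (orange), 1 row for each list, with the median of the list as a vertical line. Crosslinking and assembly genes have the highest median, 137 TPM, and integrins the lowest, 9.08 TPM; Bmp10 and Mmp12 lie at the left edge.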

How the data were processed

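Polyadenylated limb RNA of 2 libraries was analysed from the gene and transcript tables the authors deposited, made against mm10 with GENCODE M4 per the text file deposited beside them. Their program was not given in the sources used here. Per the file headers, the tables hold expected counts, TPM, FPKM, lengths and, for transcripts, the percent of the gene's TPM. The deposited interval bounds, a signal in TPM units, were not used. Symbols, coordinates and exons came from GENCODE M21 by stable identifier, and 884 of 43346 gene rows had none. Spike-in and tRNA rows, 3.73% and 4.30% of deposited counts, were left out.

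Expected counts were rounded and scaled by TMM factors of 1.01 and 0.992 (edgeR 4.0.16). Libraries were compared by a two-sided exact binomial test over genes with at least 10 counts, with Benjamini-Hochberg adjustment at 0.05 (scipy 1.17.1). Ratios used a prior count of 0.5. Levels were compared by an intercept-only limma 3.58.1 fit with a trend to log2(TPM + 1) over 15055 genes whose mean reached 1 TPM. Intervals for a pair took both moderated variances and 5.37 degrees of freedom, and treat the genes as measured apart. No p-value was given for pairs. Procedures were tested on simulated data, with counting error alone for the binomial test and with genes drawn apart for limma. Such data do not show how the binomial test behaves under the wider spread of these libraries.

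All 10 genes, and of their transcripts those with at least 10% of the gene's TPM in either library, were named. Of each partner list the 3 highest and any under 1 TPM in both libraries were named, with exceptions marked. Genes and lists were chosen with earlier results of these data known. Alternatives were posterior mean TPM, FPKM, CPM, other scalings (DESeq2 1.42.0 size factors, total counts, ERCC spike-ins), filters, a pseudocount of 0.1 and leaving out a library.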

Additional observations from a re-analysis of the deposited data

How the results depend on the processing

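With 2 libraries of 1 group, levels and shares are known only to the spread of 2 values. No paired analysis was possible because there is 1 group, and the limma fit cannot be made with either library left out. The median level of the 10 genes, 88.4 TPM, was 80.9 TPM without short transcripts, and 83.8 to 93.0 TPM with 1 library left out. The median share of the leading transcript, 92%, ranged from 91.7% to 92.3% with 1 library left out. Of the 10 genes, 4 have 1 annotated transcript and a share fixed at 100%, which holds this median steady. The leading shares of Ltbp1 and Ltbp2 differed by 12.3 and 16.5 points between the libraries. Of the steps between neighbouring genes, 5 exceeded the spread, 4 without the filter on low values (where Emilin1 over Eln was lost, as it was in CPM) and 6 in CPM. Without short transcripts Emilin1 over Eln turned to a log2 difference of -0.39. In CPM, which leaves transcript length in the value, Eln over Ltbp3 turned to -1.03, Ltbp3 over Fbn2 to -0.59, Ltbp4 over Ltbp1 to -0.11 and Fbln5 over Fbn1 to -0.08. No direction between the libraries turned under any scaling. By total counts alone Ltbp1 was called as well (log2 ratio -0.03), making 10 of 10 in place of 9.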
